A study of Mus musculus with 12 samples.

Results

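Eif4e2, Gigyf2, Atg16l1, Dgkd and Usp40 are 5 neighbouring genes of mouse chromosome 1. They were selected on measured signal, because probe sets for them lay lower in every array of hepatocytes with the human aryl hydrocarbon receptor (AHR) than in every wild type array. All probe sets annotated to one of these symbols alone were taken, which gave 19 of 45037 probe sets and 5 of 18193 genes. A probe set is the group of short oligonucleotides on the array that reads one transcript region, and a gene can have several. The genotype difference chose the genes, so it is described here without a test. The response to TCDD within each genotype was tested. The rule did not use that contrast, but it drew on the same 12 arrays and so limits how large a response the chosen probe sets could show.

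RNA came from primary mouse hepatocytes cultured for 48 h and then given TCDD at 10 nM or its vehicle, DMSO, for 6 h. TCDD is a dioxin that activates the AHR, a ligand-dependent transcription factor. Wild type cells came from C57BL6/J mice. Human AHR cells came from B6.Cg mice with the allele Ahrtm3.1Bra and the transgenes Tg (Alb-cre, Ttr-AHR)1Ghp, that is a modified mouse Ahr gene, Cre recombinase under the albumin promoter and human AHR under the transthyretin promoter. Both promoters act chiefly in hepatocytes. In strain nomenclature, B6.Cg marks a C57BL/6 background that carries segments from more than 1 donor, and the sources used here do not give which segments these mice held besides the named loci. Each of the 4 groups (wild type vehicle, wild type TCDD, human AHR vehicle, human AHR TCDD) held 3 arrays, each of a separate mouse by the series' design. Vehicle and TCDD arrays with the same replicate number nevertheless deviated together in human AHR cells (r from 0.191 to 0.265 across genes). In wild type cells those of replicate 2 did so (r = 0.508) and those of replicate 3 did not (0.049). Wild type vehicle replicate 1 deviated with TCDD replicate 3 (0.283) about as with TCDD replicate 1 (0.25). Only the wild type replicate 2 arrays, both vehicle and TCDD, carried the female-specific transcript Xist. Whether arrays with the same number share a mouse or a culture run was not tested. If they share a mouse, the arrays of a genotype are not all of separate animals. An effect of the genotype cannot be told apart from one of the colony or the culture run.

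The proteins of these genes work in separate processes. Eif4e2 encodes 4EHP, a cap-binding protein related to the translation factor eIF4E that represses translation, and Gigyf2 encodes the scaffold that holds 4EHP on target mRNAs. Atg16l1 encodes a subunit of the complex that attaches LC3 to the growing autophagosome membrane. Dgkd encodes diacylglycerol kinase delta, which turns the second messenger diacylglycerol into phosphatidic acid. Usp40 encodes a ubiquitin-specific protease. The Ugt1a cluster, which encodes bilirubin and drug conjugating enzymes, lies next to Usp40, and its 3 probe sets name several genes each and were not used.

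The stretches upstream of the transcription starts are shown because the genes lay lower together in cells whose receptor differs, and the AHR with its partner ARNT recognises the core GCGTG. RefSeq promoter sequences (build GRCm38.p6) were matched for 4 of the 5 genes, all except Atg16l1. The 250 bases before the first listed start are given 5′ to 3′ on the strand of the gene, with GCGTG or its reverse complement CACGC in capitals. They cover chr1:87213661-87213910 (plus strand), chr1:87326748-87326997 (plus strand), chr1:87853037-87853286 (plus strand) and chr1:88008552-88008801 (minus strand).
Eif4e2: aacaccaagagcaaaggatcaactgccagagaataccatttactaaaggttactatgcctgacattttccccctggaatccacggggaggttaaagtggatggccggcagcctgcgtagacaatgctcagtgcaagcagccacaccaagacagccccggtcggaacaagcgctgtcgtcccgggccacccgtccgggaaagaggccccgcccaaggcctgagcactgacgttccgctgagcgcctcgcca
Gigyf2: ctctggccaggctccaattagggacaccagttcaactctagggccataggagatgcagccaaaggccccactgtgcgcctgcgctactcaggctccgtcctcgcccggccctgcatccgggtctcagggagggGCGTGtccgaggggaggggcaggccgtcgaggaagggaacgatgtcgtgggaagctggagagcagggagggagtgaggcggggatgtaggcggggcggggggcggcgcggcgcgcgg
Dgkd: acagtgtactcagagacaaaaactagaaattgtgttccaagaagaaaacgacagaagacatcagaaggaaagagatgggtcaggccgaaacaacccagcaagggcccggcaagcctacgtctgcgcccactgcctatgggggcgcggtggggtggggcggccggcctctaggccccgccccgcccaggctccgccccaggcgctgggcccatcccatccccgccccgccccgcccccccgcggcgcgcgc
Usp40: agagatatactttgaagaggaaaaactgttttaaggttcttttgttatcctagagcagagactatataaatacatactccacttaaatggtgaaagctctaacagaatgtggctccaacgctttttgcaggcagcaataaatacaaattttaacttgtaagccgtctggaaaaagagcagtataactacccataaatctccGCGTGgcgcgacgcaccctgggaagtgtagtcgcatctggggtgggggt
The core occurred once, on the strand of the gene, in the windows of Gigyf2 and Usp40, that is in 2 of 4. Of 27020 genes with a listed promoter, 28.2% held it on either strand of the same window. The G and C content was 58.8% for Eif4e2, 69.6% for Gigyf2, 67.2% for Dgkd and 42.0% for Usp40, against a median of 52.0% over all genes. A match of these letters is a description of the reference window, and the DNA of the human AHR mice was not read here.

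Array quality was alike in both genotypes. Signals were rescaled so that each array had the same trimmed mean of 150, after which array medians lay between 16.5 and 23.5 and arrays of a group correlated across genes at 0.958 to 0.985. The 3′ to 5′ ratio of Gapdh, a measure of RNA integrity, ran from 0.798 to 0.839 in wild type and from 0.799 to 0.841 in human AHR arrays. Ahr, the modified gene, read 223.4 to 616.7 in wild type and 192.8 to 235.9 in human AHR arrays, and the sources used here do not say whether its probe set lies in the modified part. Both wild type replicate 2 arrays carried the female-specific transcript Xist (at least 2952, against at most 29.3 elsewhere). No human AHR array did, so the sexes are not balanced between the genotypes. Some values of Usp40 and Dgkd are therefore also given without these arrays. Other values moved too. As a percent of wild type, the second Gigyf2 probe set went from 43.2% to 37.5% and the third of Eif4e2 from 55.8% to 50.9%. The fourth of Usp40 went from 38.4% to 45.6%.

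The brightest probe set of every one of the 5 genes read lower in all 6 human AHR arrays than in all 6 wild type arrays, against 0.236% of all genes. The human AHR mean was 54.4% of the wild type mean for Eif4e2, 58.3% for Gigyf2, 59.0% for Atg16l1, 63.2% for Dgkd and 43.2% for Usp40. Under vehicle alone, where all arrays were deposited on the same scale, these percentages ran from 47.7% to 68.4%, and under TCDD from 39.5% to 58.3%. In these bulk samples fewer cells of a type and less RNA per cell cannot be told apart. The signal is one of hybridisation, and the probes' sequences and the strains' variants were not analysed here, so less RNA and weaker binding to the probes cannot be told apart either. Of all 19 probe sets, 9 lay lower in all 6 human AHR arrays, against 0.213% of all probe sets on the array. Under vehicle alone 10 of 19 lay lower in the 3 human AHR arrays than in the 3 wild type arrays (4.23% of all probe sets), and under TCDD 14 of 19 (6.01%). The choice of the genes sets the members' counts, so nothing is read from the contrast.

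**Figure D1:**
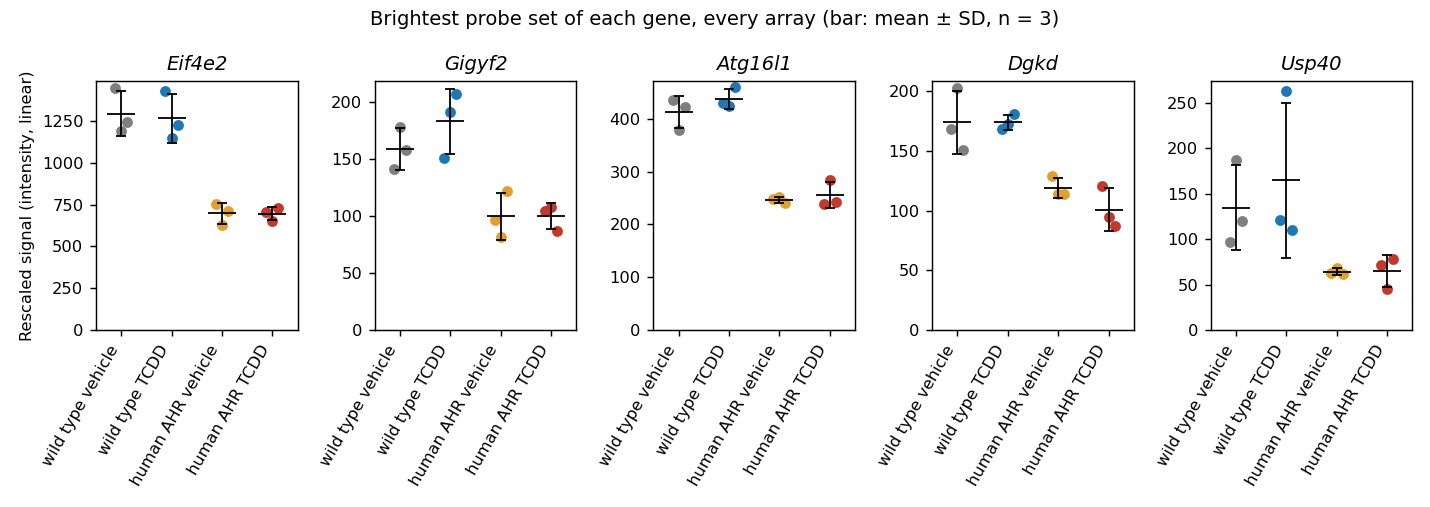
Rescaled signal (linear intensity, y axis from 0) of the brightest probe set of each of the 5 genes in every array, by group (x axis). Points are arrays, long bars are group means and whiskers are SDs (n = 3). In each panel the 6 human AHR points lie under the 6 wild type points, and for Usp40 the highest points of both wild type groups, 186.9 and 263.4, are the replicate 2 arrays.

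Eif4e2 was read by 5 probe sets, numbered here, as for the other genes, from the highest mean signal. Its brightest gave 1448, 1193 and 1242 in wild type vehicle, 1429, 1146 and 1225 in wild type TCDD, 750.9, 630.1 and 709.5 in human AHR vehicle and 706.7, 652.9 and 728.9 in human AHR TCDD arrays. The lowest wild type array stood 1.53 times above the highest human AHR array, and treatment groups of a genotype overlapped. The second probe set averaged 1120 ± 135 (SD, n = 6) in wild type and 640.4 ± 49.4 in human AHR arrays, 57.2% of wild type. The third ran from 129.0 to 205.2 in wild type, with a median of 155.3, and from 74.5 to 100.0 in human AHR arrays, with a median of 90.3. These 3 probe sets of the cap-binding repressor separated the genotypes fully and gave percentages of wild type from 54.4% to 57.2%. The fourth and the fifth overlapped. The fourth averaged 81.5 ± 15.4 in wild type and 61.2 ± 13.9 in human AHR arrays, and the fifth 31.5 ± 7.42 and 22.8 ± 8.91.

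Gigyf2, the partner scaffold of 4EHP, was read by 4 probe sets. The brightest gave 141.2, 178.0 and 158.2 in wild type vehicle, 151.0, 191.3 and 207.1 in wild type TCDD, 96.2, 81.5 and 121.8 in human AHR vehicle and 104.5, 108.0 and 86.7 in human AHR TCDD arrays. The human AHR arrays were all lower, and the nearest pair of arrays across genotypes was 121.8 and 141.2. The second probe set ran from 53.7 to 156.0 in wild type and from 32.9 to 50.3 in human AHR arrays, 43.2% of wild type on average. It spread more in wild type, where both replicate 3 arrays were the highest at 125.6 and 156.0. The remaining pair overlapped. The third averaged 23.6 ± 7.16 in wild type and 18.8 ± 10.3 in human AHR arrays, and the fourth 23.8 ± 8.94 and 11.5 ± 5.46.

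Atg16l1, of the LC3 conjugation machinery, was read by 2 probe sets. The brightest gave 436.8, 378.6 and 423.0 in wild type vehicle, 429.6, 424.2 and 460.3 in wild type TCDD, 248.8, 251.5 and 240.7 in human AHR vehicle and 239.4, 283.8 and 242.3 in human AHR TCDD arrays. The wild type arrays averaged 425.4 ± 26.7 (SD, n = 6) and the human AHR arrays 251.1 ± 16.7, and no array lay between 283.8 and 378.6. The second probe set read at most 17.2 in any array and did not separate the genotypes.

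Dgkd, the diacylglycerol kinase, was read by 4 probe sets. The brightest gave 168.6, 202.4 and 150.3 in wild type vehicle, 168.6, 172.1 and 180.7 in wild type TCDD, 128.6, 114.0 and 114.0 in human AHR vehicle and 120.8, 94.4 and 87.1 in human AHR TCDD arrays. The human AHR arrays were lower without overlap, and the TCDD arrays of that genotype held both the lowest values and 1 value above 2 of the vehicle arrays. The second probe set averaged 68.2 ± 11.1 in wild type and 48.4 ± 10.5 in human AHR arrays. It overlapped under vehicle and not under TCDD, where wild type ran from 70.2 to 85.8 and human AHR from 40.1 to 60.9. The third averaged 24.5 ± 6.52 and 23.7 ± 9.33, with overlap. The fourth stayed at or under 3.45 in 11 of 12 arrays and read 13.6 in human AHR TCDD replicate 2.

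Usp40, the ubiquitin protease at the end of the stretch, was read by 4 probe sets. The brightest gave 97.2, 186.9 and 120.2 in wild type vehicle, 121.0, 263.4 and 110.7 in wild type TCDD, 62.8, 68.8 and 61.2 in human AHR vehicle and 71.9, 44.9 and 78.7 in human AHR TCDD arrays. The replicate 2 arrays, from female cells, were the highest of both wild type groups. Without them the human AHR mean was 57.6% of the wild type mean in place of 43.2%. Leaving out the highest wild type arrays could not make the genotypes overlap. The second probe set showed the same high replicate 2 arrays (106.3 and 140.2, against 40.8 to 54.4 in the other wild type arrays). It went from 48.7% of wild type to 73.6% without them. The third and the fourth averaged 32.2 ± 13.2 and 29.3 ± 13.8 in wild type and 15.4 ± 7.30 and 11.2 ± 3.24 in human AHR arrays.

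A pair of Usp40 probe sets stood at the edge of the rule that chose the genes. In the fourth the lowest wild type array read 15.6 and the highest human AHR array 15.1, which is just inside. In the second these values were 40.8 and 43.0, just outside. Across the 19 probe sets the difference of human AHR from wild type on the log2 scale ran from -0.98 to 0.09 with a median of -0.61, and 18 of 19 were negative. With a mean signal of at least 50 over the 12 arrays, 8 of 11 probe sets separated the genotypes fully, against 0.344% of all such probe sets. With a mean under 50, 1 of 8 did.

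**Figure D2:**
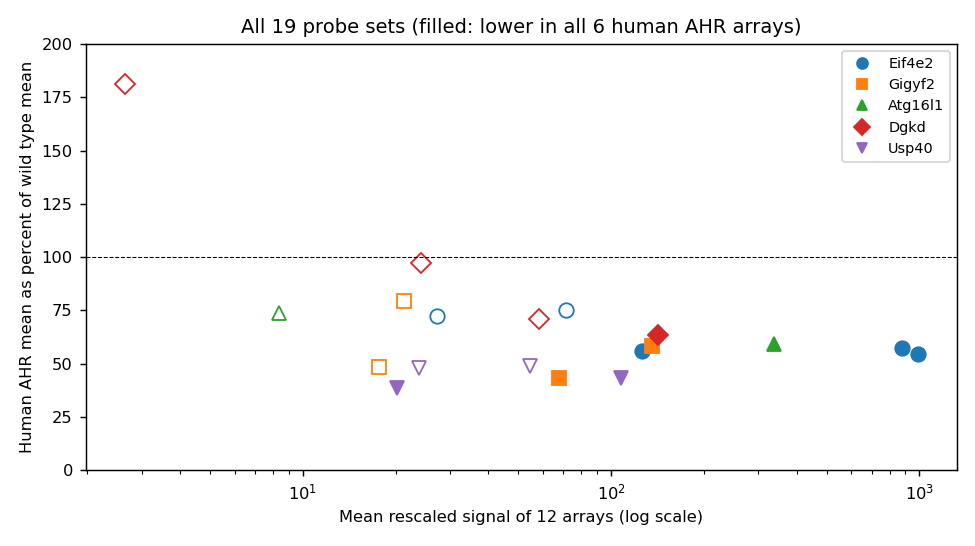
Human AHR mean as a percent of the wild type mean (y axis, 6 arrays each) against the mean rescaled signal of the 12 arrays (x axis, log scale) for all 19 probe sets, with a symbol for each gene. Filled symbols lie lower in all 6 human AHR arrays than in all 6 wild type arrays, run from 38.4% to 63.2% and hold 8 of the 11 probe sets of mean signal 50 or more, while the point at 181% is a Dgkd probe set with a mean signal of 2.65.

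No change of the 5 genes with TCDD was called in either genotype. Limma, a linear model fitted to all 45037 probe sets with Benjamini-Hochberg adjustment, called 0 of the 19 probe sets in wild type cells (1 at an unadjusted p under 0.05), with 0.00444% of all probe sets called. In human AHR cells it called 0 of 19 (1 at an unadjusted p under 0.05), with 0.00666% of all called. With so few called on the whole array, 0 of 19 says little about these genes. For the brightest probe set of Eif4e2 the log2 change with TCDD was -0.03 in wild type (95% confidence interval -0.31 to 0.25, limma adjusted p = 0.99) and 0.00 in human AHR cells (-0.28 to 0.28, limma adjusted p = 1.0). These bounds correspond to folds between 0.805 and 1.19 in wild type and between 0.824 and 1.22 in human AHR cells, on the scale of signal plus 16.

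In the brightest probe sets of the other genes, Atg16l1 had an interval of like width. Its log2 change was 0.08 in wild type (95% confidence interval -0.18 to 0.35) and 0.04 in human AHR cells (-0.23 to 0.31). For Gigyf2 it was 0.18 (-0.20 to 0.56) and 0.01 (-0.38 to 0.39). Dgkd stood at 0.01 (-0.34 to 0.35) and -0.22 (-0.56 to 0.13). Usp40 stood at 0.21 (-0.42 to 0.84) and -0.01 (-0.64 to 0.63). Each of these intervals holds 0, and the widest are those of Usp40.

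The wild type replicate 2 arrays set much of the Usp40 estimate. Without both of them its log2 change in wild type cells was 0.09 (95% confidence interval -0.44 to 0.61), without the vehicle array alone 0.45 and without the TCDD array alone -0.15, so its sign rests on 1 array. The fourth Usp40 probe set went from 0.41 to 0.18 without both. The brightest Dgkd probe set went from 0.01 to 0.12 (-0.30 to 0.54). Because the genes were chosen for arrays that do not overlap between genotypes, a TCDD effect large enough to bring the genotypes together could not have been chosen.

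Over the 19 probe sets the median log2 change with TCDD was 0.17 in wild type cells, with 17 positive, beside a median of 0.04 and 58.4% positive over all probe sets. In human AHR cells the median was 0.00, with 10 positive, beside -0.01 and 47.6%. The wild type values depend on the scaling of the arrays. With arrays set to a shared median in place of a shared trimmed mean, 12 of 19 were positive in wild type cells with a median of 0.05, beside -0.07 and 36.9% positive over all probe sets. With quantile normalization 16 were positive with a median of 0.11, beside 0.00 and 50.2%. Under the shared median the brightest probe sets of Atg16l1 (-0.03) and Dgkd (-0.11) turned negative in wild type cells. The probe sets at an unadjusted p under 0.05 were both low in signal. These were the third probe set of Usp40 in wild type cells (log2 0.61, limma adjusted p = 0.968) and the third of Dgkd in human AHR cells (log2 -0.51, limma adjusted p = 1.0).

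**Figure D3:**
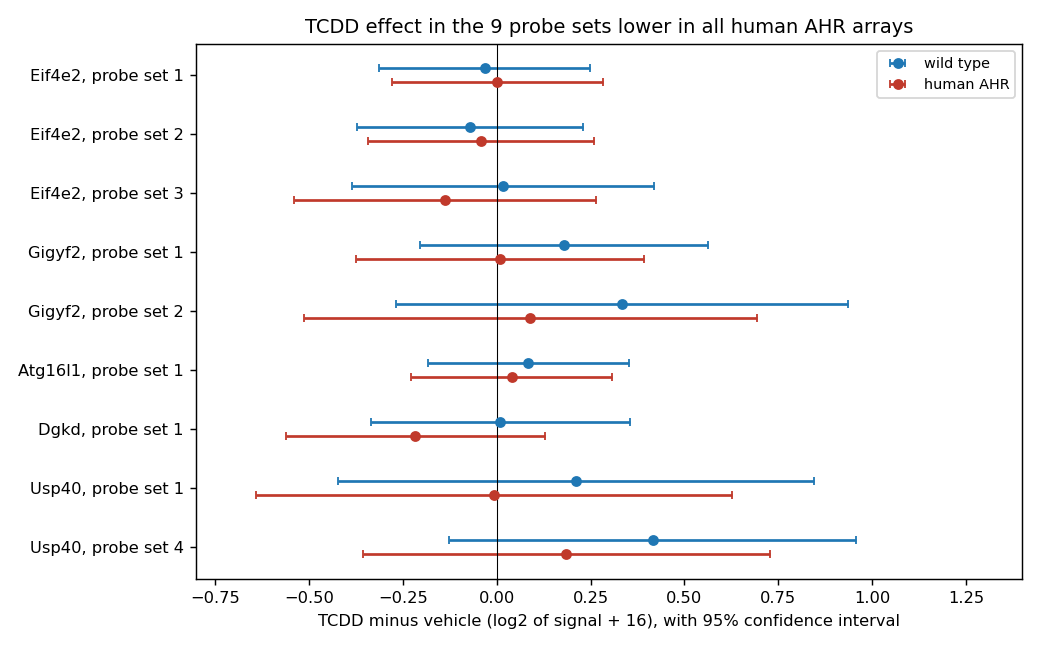
Log2 change with TCDD against vehicle (x axis, log2 of signal plus 16, limma estimate with 95% confidence interval) in wild type and human AHR cells for the 9 probe sets that lie lower in all human AHR arrays, numbered within a gene from the brightest. All 18 intervals include 0, and the estimates run from -0.07 to 0.41 in wild type and from -0.22 to 0.19 in human AHR cells.

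A change of the genotype gap under TCDD was tested as an interaction, the TCDD effect in human AHR minus that in wild type cells. Limma called 0 of the 19 probe sets (2 at an unadjusted p under 0.05), with 0.0% of all probe sets called. In the brightest probe sets the difference was 0.03 for Eif4e2 (95% confidence interval -0.36 to 0.43), -0.04 for Atg16l1 (-0.42 to 0.33) and -0.17 for Gigyf2 (-0.71 to 0.37). It was -0.23 for Dgkd (-0.71 to 0.26) and -0.22 for Usp40 (-1.12 to 0.68), all at limma adjusted p = 0.9997. Without both wild type replicate 2 arrays the Usp40 value was -0.09 (-0.77 to 0.58) and the Dgkd value -0.34 (-0.88 to 0.20). Without the wild type TCDD replicate 2 array alone the Usp40 value was 0.14. With a shared median the Atg16l1 value was 0.09. The 2 probe sets at an unadjusted p under 0.05 were the third of Usp40 (-0.95) and the third of Dgkd (-0.78). For the brightest Eif4e2 and Atg16l1 probe sets the intervals leave room for less change in the gap than for the other genes.

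The position of the genes was then described with RefSeq's gene order. From Eif4e2 to Usp40 the array measured 12 genes, of which 5 are the chosen ones. The other 7 (Efhd1, Kcnj13, Snorc, Ngef, Neu2, Inpp5d and Sag) all had a mean signal under 50, between 5.88 and 33.1, and 0 of them separated the genotypes. Over all genes 0.236% lay lower in all 6 human AHR arrays. So the chosen genes were every measured gene of the stretch with a mean signal of at least 50. Of the 7, 6 had a negative genotype difference on the log2 scale, with a median of -0.27. Inpp5d, a phosphatase of blood cells, read 28.2 to 53.4 in wild type and 17.2 to 59.6 in human AHR arrays (log2 -0.20). Neu2, a sialidase, read 1.44 to 28.4 and 0.60 to 2.20 (log2 -0.52, limma adjusted p = 0.904). Kcnj13, a potassium channel gene, stood at -0.41 and Efhd1, a calcium-binding protein gene, at 0.22.

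Of the 50 measured genes on both sides of the stretch, 0 lay lower in all 6 human AHR arrays, against 0.236% of all genes. A count of 0 is near that share and does not mark where the lower signal ends. The 3 nearest genes with a mean signal of at least 50 on either side were named after their values were seen. Toward Eif4e2 these were Dis3l2, an exoribonuclease gene (65.0 ± 20.7 in wild type and 64.3 ± 18.9 in human AHR arrays, SD, n = 6), Cops7b of the COP9 signalosome (163.4 ± 17.7 and 158.1 ± 13.2) and Pde6d (238.9 ± 34.4 and 257.2 ± 34.1). Beyond Usp40 they were Mroh2a (41.6 to 80.8 and 29.9 to 89.8), Spp2, a secreted phosphoprotein gene (616.1 ± 152 and 503.3 ± 136), and Agap1 (202.2 ± 21.6 and 205.3 ± 24.1). The arrays of both genotypes overlapped in each of these 6 genes. Spp2 had the most negative log2 difference of the 16 flanking genes of that signal, -0.29 (95% confidence interval -0.70 to 0.12, limma adjusted p = 0.954). Of the 5 measured genes nearest on either side, Akp3, Ecel1, Prss56, Chrnd and Chrng before Eif4e2 and Dnajb3, Trpm8 and Gm29538 beyond Usp40 had mean signals from 1.04 to 26.8.

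Over all 57 neighbours (the other 7 and 25 measured genes on each side), limma called 0 for the genotype difference averaged over treatments (4 at an unadjusted p under 0.05), with 0.033% of 18193 genes called. The median over these neighbours was 0.00 on the log2 scale with 27 negative, beside a median of 0.01 and 48.3% negative over all genes. The 16 flanking genes of mean signal at least 50 ran from -0.29 to 0.37, with a median of 0.01 and 8 negative. These neighbours are what was left of the region once the 5 genes had been taken out.

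**Figure D4:**
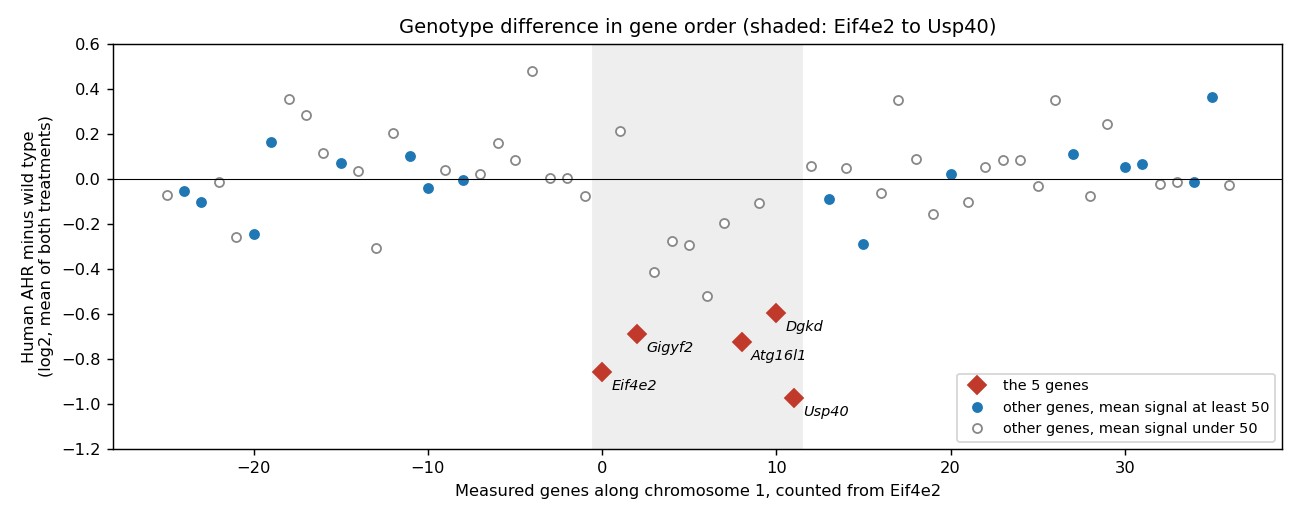
Difference of human AHR from wild type (y axis, log2, mean of both treatments) for measured genes along chromosome 1, in order and counted from Eif4e2 (x axis), with 25 genes on either side of the shaded stretch from Eif4e2 to Usp40. Diamonds mark the 5 genes, at -0.98 to -0.60, filled circles the 16 flanking genes of mean signal at least 50, at -0.29 to 0.37, and open circles genes under 50.

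Such a run of neighbours was then looked for along all chromosomes. Of 8714 genes with a mean signal of at least 50 and a place in RefSeq, 32 lay lower in all 6 human AHR arrays, 0.367%. The 5 genes followed each other without a gap among these 8714. The next longest runs of lower genes had 2 members each, Tmem18 with Acp1 and Heatr5a with Dtd2, both on chromosome 12. The run of higher genes with more than 1 member was Gfm1 with Lxn on chromosome 3. With a minimum of 30 in place of 50, Inpp5d entered at 33.1 and parted the run into Eif4e2 with Gigyf2 and Atg16l1 with Dgkd and Usp40. With a minimum of 100 the run of 5 stood. The region was picked for this pattern, so the run describes it and does not test it.

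Genes with an array pattern most like that of the 5 genes lay on other chromosomes. The likeness was Pearson's r over 12 arrays with the mean of the 5 centred log2 values, among 8723 other genes of mean signal at least 50. The other 7 measured genes of the stretch all had a mean under 50, so no gene of the stretch could be ranked. Adi1, an enzyme gene of methionine salvage on chromosome 12, had r = 0.962, with 1115 ± 182 in wild type and 277.1 ± 50.4 in human AHR arrays. Oat, the ornithine aminotransferase gene on chromosome 7, had r = 0.92 (1047 ± 138 and 670.0 ± 69.7). Aamdc on chromosome 7 (0.907), Ppm1m, a phosphatase gene on chromosome 9 (0.905), and Lgr4, a receptor gene on chromosome 2 (0.901), followed. All 5 lay lower in all 6 human AHR arrays, and the points of these correlations share the arrays and the genotype step.

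Genes that work with the 5 proteins were followed from lists based on function. Limma called 0 of the 134 partner genes measured for the genotype difference, with 0.033% of all genes called. Of 26 measured partners of 4EHP and GIGYF2 (related cap-binding proteins, RNA-binding proteins of the ZFP36 family, the CCR4-NOT deadenylase), 18 were positive and 8 negative, with a median of 0.09 on the log2 scale and 1 at an unadjusted p under 0.05. That one was Zfp36l2, which encodes an mRNA-destabilising protein, at 0.48 (171.4 ± 17.5 in wild type and 256.3 ± 80.6 in human AHR arrays, limma adjusted p = 0.906). Ddx6, a helicase gene, stood at -0.21. The median of all genes was 0.01.

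Of 32 measured autophagy genes, 22 were positive and 10 negative with a median of 0.05, and 2 had an unadjusted p under 0.05. These were Atg4a, an LC3-processing protease gene, at -0.30 (340.3 ± 44.4 and 274.3 ± 41.0), and Map1lc3a, an LC3 gene, at -0.26 (5204 ± 442 and 4397 ± 788), both at limma adjusted p = 0.921. Of 30 measured genes of diacylglycerol metabolism and signalling, 16 were positive with a median of 0.01 and 3 had an unadjusted p under 0.05. Prkce, a protein kinase C gene, stood at -0.46 (105.3 ± 14.2 and 73.4 ± 19.8, limma adjusted p = 0.801) and Plcb4, a phospholipase C gene, at 0.55 (9.82 ± 8.12 and 20.5 ± 5.39). Of 46 measured ubiquitin-specific proteases other than Usp40, 26 were positive with a median of 0.01 and 3 had an unadjusted p under 0.05. Usp5 stood at -0.25 (359.3 ± 30.4 and 300.6 ± 39.9) and Usp26 at 0.43 on signals of 3.40 and 10.1. The arrays of both genotypes overlapped in each partner gene named, so the step seen in the 5 genes was not found in those.

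For TCDD, limma called 0 partner genes in wild type cells (0.0055% of all genes called), 0 in human AHR cells (0.022%) and 0 for the interaction (0.0%). Unadjusted p values under 0.05 were found in 3 partner genes for each of these comparisons. Zfp36l1 of the ZFP36 family, named after its value was seen, had the smallest p in human AHR cells, with a log2 change of 1.35 (95% confidence interval 0.73 to 1.98, limma adjusted p = 0.868).

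Marker levels were set beside the genotype difference because the cultures may differ. The summed signal of 12 hepatocyte markers ran from 70790 to 95640 in wild type and from 71580 to 92860 in human AHR arrays. That of 16 measured genes of dedifferentiation in culture (cytoskeleton, Myc, Ccnd1 and the like) ran from 62470 to 82070 and from 64870 to 78600. For the genotype difference limma called 0 genes of either list, with 0.033% of all genes called. In each list 0 had an unadjusted p under 0.05, and 0 lay higher or lower in all 6 human AHR arrays. Of the dedifferentiation genes 12 were positive and 4 negative (median log2 0.08), and of the hepatocyte markers 5 and 7 (-0.005), beside 0.006 over all genes. For the difference of TCDD effects these counts were 13 and 3 (0.265) and 3 and 9 (-0.09), beside -0.04 over all genes. Under TCDD the dedifferentiation sums did not overlap, with wild type at 63350 to 68220 and human AHR at 69170 to 76730, while under vehicle they did.

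Markers of Kupffer cells and macrophages were higher in human AHR arrays in 11 of 11 measured genes, with a median log2 difference of 1.35. For the genotype difference limma called 0 (9 at an unadjusted p under 0.05), with 0.033% of all genes called. Marco and Vsig4, receptors of resident macrophages, lay higher in all 6 human AHR arrays, against 0.187% of all genes. The summed signal of that list overlapped, at 1872 to 4167 in wild type and 1868 to 5021 in human AHR arrays, and 5 of the 11 had a mean under 50. The sums also overlapped for 10 stellate and fibroblast markers (131.0 to 193.7 and 148.2 to 305.4), 9 endothelial markers (184.2 to 219.3 and 180.0 to 303.0), 6 bile duct markers (608.2 to 941.8 and 542.7 to 1373) and 8 lymphocyte markers (29.8 to 104.6 and 37.6 to 120.9). Under TCDD alone the stellate sums did not overlap (154.6 to 193.7 in wild type and 223.7 to 280.6 in human AHR arrays). Limma called 0 genes of these 4 lists for the genotype difference, with 1 stellate and 1 lymphocyte marker at an unadjusted p under 0.05. The part of these other cells in the lower signal of the 5 genes was not tested.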

How the data were processed

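RNA was measured on 12 Affymetrix mouse arrays. Per the design text and the submitters' processing notes, the authors used GCOS, then PLIER-MM (Affymetrix Expression Console 1.1), and SAM for group comparisons. The deposited intensities are linear. Their mean after trimming 2% at each end was 500 for wild type TCDD arrays (3) and 150 for the other 9, as global scaling gives. Each array was therefore rescaled to 150, and log2 of signal plus 16 was taken. Without the 64 control probe sets 45037 remained. Of these, 34945 name 1 gene symbol, 932 several and 9160 none, and 18029 of 18193 genes have a place in RefSeq (GRCm38.p6).

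Limma 3.58.1 (R 4.3.3) fitted 4 group means over all 12 arrays with eBayes, its prior following intensity. All tests are two-sided, with Benjamini-Hochberg adjustment over all probe sets or genes and a threshold of 0.05. Members used all probe sets, and lists and neighbours used the probe set with the highest mean per gene. The number of arrays limits the precision. The fit was tested on simulated data.

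The members and lists were chosen with earlier results of these data known. Named genes were all member probe sets, the genes of the stretch with 5 on either side, the measured Ugt1a genes (none had a probe set of its own), in each list those called or else the 2 with the smallest p, the 5 most alike in pattern, and Ahr. Genes outside this rule are marked or stand beside a count. Alternatives covered the offset, scaling, dim probe sets, the fit, a replicate block, and arrays left out. Same-numbered vehicle and TCDD arrays deviated together in human AHR cells (r from 0.191 to 0.265), and in wild type cells 1 of 3 pairs did not (0.049). No label says that a number marks a shared mouse. A pairing by number would rest only on these correlations and on Xist, which only the wild type replicate 2 arrays carried. Figures were drawn with matplotlib 3.10.9.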

Additional observations from a re-analysis of the deposited data

How the results depend on the processing

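Of the member probe sets, 0 were called for TCDD in wild type, for TCDD in human AHR cells or for the difference under every alternative run, with limma adjusted p of at least 0.631 among the 9 probe sets that separate the genotypes. Of 585 refitted values of these, 50 changed sign, none of them called. The replicate block within genotype also gave 0 calls for each of these comparisons, 0 for the neighbours and 0 for the partner genes, and it changed no call. The neighbours and partner genes stayed at 0 calls in all their alternatives. The count of probe sets lower in all human AHR arrays was 9 with a shared median and with quantile normalization, settings that could have moved it. It was also 9 under each offset, which cannot change the order of arrays. Without both wild type replicate 2 arrays it was 9, and with 1 array left out 9 to 10. Leaving arrays out can only keep or raise this count. The 10 came without wild type vehicle replicate 3 or human AHR TCDD replicate 1. With 1 probe set a gene it was 5 of 5, since fewer probe sets were counted. With no offset the genotype difference of the fourth Usp40 probe set was -1.32, and with an offset of 50 it was -0.36, in place of -0.69. An alternative chosen after seeing the data, a minimum signal of 30 for the gene order, shortened the run around Atg16l1 from 5 to 3 genes, because Inpp5d then stood in it. Signals near the array median, as for 8 of the 19 probe sets with a mean under 50, limit what can be seen.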
